A study of Mus musculus with 3 samples.

Results

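The actin family was examined in RNA interactome analysis and sequencing (RIA-seq) data from mouse E14 ES cells, embryonic stem cells of the labelled strain 129/Ola that are grown as an established line. Its members were the genes in the deposited count tables whose symbol is Actb, Actg1, Acta1, Acta2, Actc1, Actg2 or Actg-ps1. All 7 were listed in at least 1 library, of 26887 genes listed in the series. In RIA-seq, RNA that is held together with a chosen RNA in fixed cells is pulled out with antisense oligonucleotides against that RNA and is then sequenced. All 3 libraries came from undifferentiated cells grown with LIF on gelatin without feeder cells, fixed with glutaraldehyde, lysed in SDS and sonicated, and in all 3 the captured RNA was collected on streptavidin beads and treated with DNase before cDNA synthesis. The libraries differed in the oligonucleotides: those against Actb gave the control of the study (Actb RIA-seq, here the Actb library), those against the long noncoding RNA Malat1 gave Malat1 RIA-seq (the Malat1 library), and those against Tfrc, the transferrin receptor mRNA, gave Tfrc RIA-seq (the Tfrc library). Each condition had 1 library, so no spread between replicates could be measured, and each test on the counts compared the reads of 2 libraries and not the conditions. In this series an actin mRNA was itself the captured RNA, and the question addressed here was what its paralogs did in the same library.

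Actins are small globular proteins that polymerize into filaments, which shape the cell, move it and carry force in muscle. Mammals have 6 actin genes of this kind. Actb and Actg1 encode the cytoplasmic β- and γ-actins made in nearly every cell, Acta1 and Actc1 encode the skeletal and cardiac muscle actins, and Acta2 and Actg2 encode the smooth muscle actins of vessel and gut. The encoded proteins are nearly the same, and copies of the cytoplasmic actin mRNAs were inserted into mammalian genomes many times as processed pseudogenes, of which Actg-ps1 is an annotated one.

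Depth was 10405209 counts in the Actb library, 10078439 in the Malat1 library and 14553941 in the Tfrc library. A gene's reads stood in a row with its Ensembl identifier (Ensembl-ID count), in a row with the reference name Genome (Genome count), or in both. Both are given apart here and were then summed. Levels are given as CPM (the summed count over the library total times 1000000), and a fold is the ratio of these shares between 2 libraries, with a 95% confidence interval. The protocol names no molecular identifiers, and PCR reads without them are not independent molecules, so every interval covers counting error only. A count of 3, the floor set here, corresponded to between 0.206 and 0.298 CPM. All 10 ES cell markers (among them Pou5f1, Sox2 and Nanog) were present in every library, at a summed 3241 CPM in the Actb library, 4075 in the Malat1 library and 4527 in the Tfrc library. Of 15 muscle and smooth muscle markers, 12, 13 and 12 were listed in the same order, at summed levels of 76.4, 101.7 and 91.9 CPM, most of which was Des (55.4, 66.5 and 64.9 CPM), the desmin gene. Ckm and Myf5 were at 0 in all 3 libraries.

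The actin genes differ little in sequence, and the stretches below show where. On build NCBIM37, Actb (ENSMUSG00000029580) lies at chr5:143664794-143668433 on the minus strand and Actg1 (ENSMUSG00000062825) at chr11:120207004-120209856 on the minus strand. Acta1 lies at chr8:126415669-126418651, Acta2 at chr19:34315580-34329826, Actc1 at chr2:113873018-113879284 and Actg2 at chr6:83462899-83486259, all on the minus strand. Actg-ps1 (ENSMUSG00000074978) is a single exon of 408 nt at chr8:47314920-47315327 on the plus strand. The coding sequence of Actg1 differed from that of Actb at 128 of 1128 bases (88.7% identity), while the proteins differed at 4 of 375 residues. Acta1 was 85.2% identical to Actb, Acta2 83.2%, Actc1 83.1% and Actg2 82.9%. Actg-ps1 was 98.3% identical to Actg1, with 7 of 408 bases different, and 86.5% identical to Actb.

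The first stretch shown is 60 bases of coding sequence that align without a gap in all 7 genes. It was chosen as the first window in which the number of variable positions was at the median. It lies within 1 exon of Actb (chr5:143666163-143666222) and of Actg1 (chr11:120208365-120208424) and in Actg-ps1 (chr8:47314949-47315008), and crosses an exon junction in the muscle actins. Each sequence is from the reference genome of build NCBIM37 and is written in the direction of the gene, with capitals where it differs from Actb.
Actb: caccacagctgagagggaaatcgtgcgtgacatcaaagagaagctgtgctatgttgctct
Actg1: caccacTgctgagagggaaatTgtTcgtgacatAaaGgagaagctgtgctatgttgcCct
Actg-ps1: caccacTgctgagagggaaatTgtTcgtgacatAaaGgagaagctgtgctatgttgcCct
Acta1: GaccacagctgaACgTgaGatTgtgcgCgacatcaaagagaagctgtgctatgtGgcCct
Acta2: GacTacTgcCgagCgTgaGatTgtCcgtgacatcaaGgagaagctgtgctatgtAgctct
Actc1: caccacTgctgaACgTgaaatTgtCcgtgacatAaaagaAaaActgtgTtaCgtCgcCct
Actg2: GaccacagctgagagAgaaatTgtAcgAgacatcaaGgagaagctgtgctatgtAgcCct
Actg1 differed from Actb at 6 of the 60 bases, Acta1 at 9, Acta2 at 11, Actc1 at 13 and Actg2 at 8. Actg-ps1 had the Actg1 sequence at every base.

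The second stretch shown is the longest part of the Actb coding sequence that is found without any change in Actg1. A run of 62 bases of Actb (chr5:143665780-143665841, minus strand) stands unchanged in both Actg1 and Actg-ps1, and its last 47 bases stand unchanged in Acta2 as well.
Actb, Actg1 and Actg-ps1: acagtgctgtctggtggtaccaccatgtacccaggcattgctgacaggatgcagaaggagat
The longest run unchanged in Actc1 was 32 bases, and that in Actg2 was 26. How reads that match more than 1 gene were counted is not given in the sources used here, and read length is not given either, so the division of counts among these genes is uncertain wherever their sequences are near-identical.

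The captured mRNA, Actb, had 759734 Ensembl-ID counts and 240 Genome counts in the Actb library, 8942 and 22 in the Malat1 library, and 13430 and 15 in the Tfrc library. These sums were 7.30% of the Actb library, 889.4 CPM (Wilson interval 871.2 to 908.0) in the Malat1 library and 923.8 CPM (908.3 to 939.5) in the Tfrc library. Actb thus stood 82.1-fold higher in the Actb library than in the Malat1 library (95% confidence interval 80.4 to 83.8) and 79.1-fold higher than in the Tfrc library (77.7 to 80.4), in the direction its label gives. Both comparisons share the Actb library and are not independent of each other.

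Actg1, the other cytoplasmic actin, was also higher in the Actb library. It had 58380 Ensembl-ID counts and 24 Genome counts there, 2913 and 6 in the Malat1 library, and 3795 and 9 in the Tfrc library. These were 5613 CPM, 289.6 CPM (279.3 to 300.3) and 261.4 CPM (253.2 to 269.8). The libraries of the other targets lay close together, and the Actb library lay far above both. The fold was 19.4 over the Malat1 library (18.7 to 20.1) and 21.5 over the Tfrc library (20.8 to 22.2). The fold of Actb was 4.24 times that of Actg1 over the Malat1 library (4.06 to 4.42) and 3.68 times over the Tfrc library (3.55 to 3.82), a ratio in which the library totals cancel.

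The pseudogene Actg-ps1 had no Genome count in any library. Its Ensembl-ID counts were 3961 in the Actb library, 17 in the Malat1 library and 47 in the Tfrc library, which are 380.7, 1.69 and 3.23 CPM. Its fold of 226 over the Malat1 library (140.2 to 363.4) was the highest of the 14572 genes that had 10 or more counts in both libraries. Over the Tfrc library its fold was 118 (88.4 to 157.2), and 1 of 14691 genes lay above it. Although Actg-ps1 is nearly a copy of Actg1, its fold was 11.7 times that of Actg1 over the Malat1 library (7.22 to 18.8) and 5.49 times over the Tfrc library (4.11 to 7.33). It was also 2.75 times that of Actb over the Malat1 library (1.71 to 4.43) and 1.49 times over the Tfrc library (1.12 to 1.99). For every 1000 Actg1 counts there were 67.8 Actg-ps1 counts in the Actb library, 5.82 in the Malat1 library and 12.4 in the Tfrc library.

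**Figure D1:**
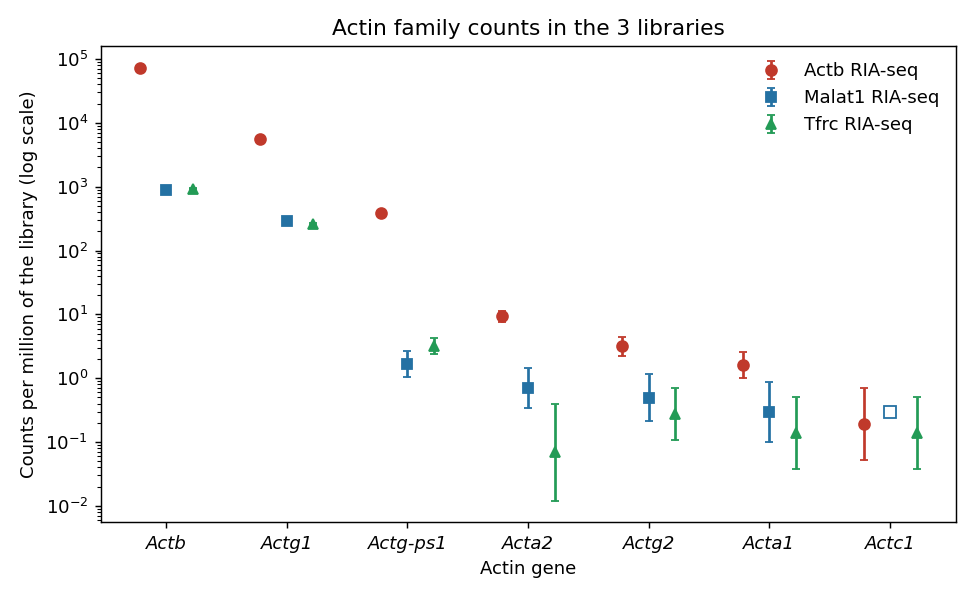
Level of each actin gene in the 3 libraries, in CPM on a log axis, with 95% Wilson intervals as bars. The open symbol marks a count of 0, drawn at the level of 3 counts. Leaving out Actc1, the Actb library (red circles) stood above both other libraries for every gene, from 73038 CPM for Actb to 1.63 CPM for Acta1. Actc1 was at 0.192 CPM in the Actb library, 0 in the Malat1 library and 0.137 CPM in the Tfrc library. It had at most 2 counts in any library, too few to compare.

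Only these 3 of the 7 genes reached the minimum of 10 counts in both libraries of a comparison. All 3 were at least 2-fold higher in the Actb library, where 0.954% of all 14572 genes tested against the Malat1 library and 0.388% of all 14691 genes tested against the Tfrc library were. In the opposite direction 42.1% and 28.6% of genes were at least 2-fold lower in the Actb library, and none of the 3 was. The median fold of all genes was 0.549 over the Malat1 library and 0.641 over the Tfrc library, or −0.86 and −0.64 on the log2 scale, so a fold of 1 stood above the typical gene in both comparisons. The two-sided chi-square test of each of the 3 genes against all other counts gave p-values too small for double precision in both comparisons.

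The 4 muscle actins were at the limit of detection outside the Actb library. Together they had 150 counts in the Actb library (14.4 CPM), 15 in the Malat1 library (1.49 CPM) and 9 in the Tfrc library (0.618 CPM). In the Actb library the Ensembl-ID count was 149 and the Genome count 1, whereas the Malat1 library had 6 and 9 and the Tfrc library had 4 and 5. None of the 4 reached 10 counts in both libraries of a comparison, so their folds carry wide exact intervals (Clopper-Pearson).

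Acta2, the smooth muscle α-actin, had the most counts of the 4. It had 97 Ensembl-ID counts and 1 Genome count in the Actb library, 3 and 4 in the Malat1 library, and 0 and 1 in the Tfrc library. Its summed fold was 13.6 over the Malat1 library (exact interval 6.34 to 34.6, adjusted p = 1.87e-17 by the chi-square test over all genes). Over the Tfrc library the summed fold was 137 (exact interval 24.0 to 5469, adjusted p = 1.4e-29 by the chi-square test), on 98 counts against 1. With Ensembl-ID counts alone the fold was 31.3 over the Malat1 library (10.4 to 154.5). Over the Tfrc library it was 45.2 with the Ensembl-ID count of 0 set to the floor of 3 counts, a value without an interval.

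Actg2, the enteric smooth muscle actin, had 33 Ensembl-ID counts and no Genome count in the Actb library, 0 and 5 in the Malat1 library, and 2 and 2 in the Tfrc library. Its summed fold was 6.39 over the Malat1 library (exact interval 2.48 to 21.0, adjusted p = 2.59e-05 by the chi-square test) and 11.5 over the Tfrc library (4.10 to 44.8, adjusted p = 2.57e-08). Acta1, the skeletal muscle actin, had 17 counts in the Actb library, 3 in the Malat1 library and 2 in the Tfrc library, all of them Ensembl-ID counts. Its fold was 5.49 over the Malat1 library (exact interval 1.59 to 29.2, adjusted p = 0.00491 by the chi-square test) and 11.9 over the Tfrc library (2.82 to 106.1, adjusted p = 8.59e-05). Actc1, the cardiac actin, had 2 Ensembl-ID counts in the Actb library, none in the Malat1 library and 2 Genome counts in the Tfrc library, which is under the floor of 3 counts in every library and gives no fold. The summed level of the muscle markers in the Actb library, given above, was lower than in either other library with libraries scaled to their totals. The median gene was lower still in both comparisons, so relative to it that sum, most of which was Des, was higher. The median fold of the markers tested was 0.702 and 0.815. Single markers differed, and Tagln (0.253 and 0.579) and Myh3 (0.534 and 0.540) lay below the median gene in both comparisons. No muscle marker was at least 2-fold higher in the Actb library, among 9 tested against the Malat1 library and 8 against the Tfrc library. Of all genes, 0.954% and 0.388% were. At least 2-fold lower was 1 marker (Tagln) over the Malat1 library and none over the Tfrc library, where 42.1% and 28.6% of all genes were. These levels are shares of captured RNA and give no measure of cell types.

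Per length, the order of the genes was the same for the leading members in all libraries. The Ensembl-ID CPM per kb of merged exons in the Malat1 library was 331.2 for Actb, 108.7 for Actg1, 4.13 for Actg-ps1, 0.206 for Acta1 and 0.167 for Acta2, with no count for Actg2 and Actc1. In the Tfrc library it was 344.4 for Actb, 98.1 for Actg1 and 7.91 for Actg-ps1, and at most 0.095 for any muscle actin. In the Actb library it was 27254 for Actb, 2111 for Actg1, 933 for Actg-ps1, 5.23 for Acta2, 2.03 for Actg2, 1.13 for Acta1 and 0.119 for Actc1. Neighbours among the muscle actins in the Malat1 library and the Tfrc library rested on 0 to 3 Ensembl-ID counts each and did not differ beyond counting error.

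The composition of the family moved between libraries. The 7 genes together had 822489 counts in the Actb library, 11915 in the Malat1 library and 17305 in the Tfrc library, which are 7.90%, 0.118% and 0.119% of the libraries. Actb made up 92.4% of the family in the Actb library, 75.2% in the Malat1 library and 77.7% in the Tfrc library. For every 1000 Actb counts there were 76.8 Actg1 counts in the Actb library, 325.6 in the Malat1 library and 282.9 in the Tfrc library.

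Neither the Malat1 library nor the Tfrc library was made with oligonucleotides against an actin, and the ratio between them is given for comparison. It is a single ratio and no measure of spread. The fold of the Malat1 library over the Tfrc library was 0.963 for Actb (0.937 to 0.989, adjusted p = 0.0215), 1.11 for Actg1 (1.06 to 1.16, adjusted p = 0.000204) and 0.522 for Actg-ps1 (0.300 to 0.910, adjusted p = 0.0634 by the chi-square test). The median gene had a fold of 1.15 in this comparison (0.21 on the log2 scale). None of the 3 genes differed by at least 2-fold, where 6.27% of 16430 genes did in either direction. Actg-ps1 passed 2-fold, at 0.453 to 0.459, when scaling used the median gene, the 75th percentile or totals without the 10 most counted genes. Relative to the median gene the ratio of Actb was below 1, and the sides on which Actb and Actg1 fell changed with the scaling or with the kind of count.

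The Genome counts of Actb were also higher in the Actb library. With 240 Genome counts against 22 in the Malat1 library and 15 in the Tfrc library, the fold over library totals was 10.6 (6.83 to 16.4) and 22.4 (13.3 to 37.7). No other gene with at least 10 Genome counts in both libraries had a higher Genome fold, among 8297 genes against the Malat1 library and 8344 against the Tfrc library, where the medians were 0.278 and 0.350. The share of Genome counts in the whole library was 5.25% for the Actb library, 19.0% for the Malat1 library and 15.1% for the Tfrc library. Taken over these Genome totals, the fold of Actb was 38.3 (24.7 to 59.2) and 64.3 (38.2 to 108.3). Its Ensembl-ID counts over their own totals gave 70.3 (68.9 to 71.8) and 70.9 (69.7 to 72.1), so on these scales the Genome fold was the lower over the Malat1 library, and over the Tfrc library the intervals overlapped.

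The Genome share of the captured actin was low, and that of its closest paralog was as low. Genome counts were 0.0316% of the Actb counts in the Actb library (Wilson interval 0.0278 to 0.0358), 0.245% in the Malat1 library (0.162 to 0.371) and 0.112% in the Tfrc library (0.0676 to 0.184). They were 0.0411% of the Actg1 counts in the Actb library (0.0276 to 0.0611), 0.206% in the Malat1 library (0.0942 to 0.448) and 0.237% in the Tfrc library (0.124 to 0.449). The shares of both genes in the Actb library lay below those in the other libraries without overlap of the intervals, and the shares of the 2 genes within a library overlapped. The Genome counts of Actg1, 24 against 6 and 9, gave folds of 3.87 (exact interval 1.54 to 11.6) and 3.73 (1.67 to 9.12) over library totals, and of 14.0 (5.59 to 42.0) and 10.7 (4.81 to 26.2) over Genome totals.

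Both genes have little intron sequence, 961 nt outside merged exons in Actb and 195 nt in Actg1. What the Genome rows hold is not given in the sources used here, and whether they hold intron reads was not tested. Among 231 genes with 1 to 2000 nt of such intron and at least 300 counts in each library, the median Genome share was 0.516% in the Actb library, 1.48% in the Malat1 library and 1.05% in the Tfrc library. Of these 231 genes, 38, 42 and 35 had a share at or below that of Actb in the 3 libraries. Among 3132 genes with more intron the medians were 8.33%, 20.5% and 18.3%. In the median gene as in the actins, the share was lowest in the Actb library.

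**Figure D2:**
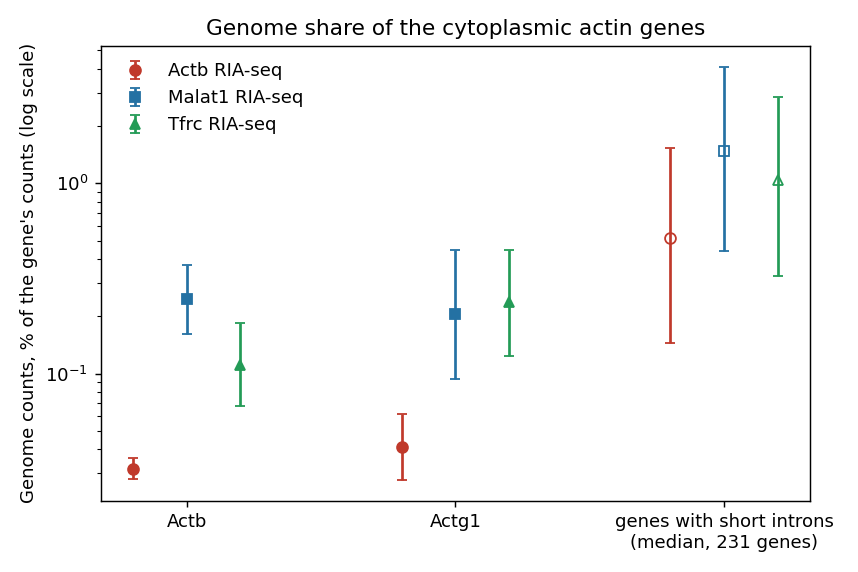
Genome counts as a percentage of all counts of a gene, on a log axis, for Actb and Actg1 with 95% Wilson intervals, and, as open symbols, for the 231 genes with short introns as the median with the 25th to 75th percentile. Both actins lay below the median of these genes in each library, at 0.0316% and 0.0411% in the Actb library against a median of 0.516%.

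Genes outside the family that share sequence with Actb were examined next. A blastn search of the Actb mRNA against the merged exons of all genes, at a minimum of 80% identity over 100 nt, found 21 genes besides Actb, of which 15 are not in the family and 12 are annotated as pseudogenes. Of the 21, 16 were listed in at least 1 library. Those with at least 10 counts in all 3 libraries were 7, and 6 of the 7 were at least 2-fold higher in the Actb library than in both other libraries. Among all 14528 genes with at least 10 counts in all 3 libraries, 21 were at least 2-fold higher over both, and 7 of these (33.3%) were Actb or shared its sequence. All 7 genes at least 10-fold higher over both were Actb or shared its sequence. These counts take Gm15725 and Lrrc58, which contains it, as separate genes. Without Lrrc58, a setting that was not planned, 5 of 6 genes sharing sequence were at least 2-fold higher over both.

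Likeness to Actb or to Actg1 was measured as the percentage of 50-base windows of a gene that match that mRNA with at most 2 mismatches. Gm15725, a pseudogene at chr16:37882628-37883717, was like Actb in 56.9% of its windows and like Actg1 in 6.72%. In the 60-base window shown above its best match differed from Actb at 1 base and from Actg1 at 5. It had 9353 counts in the Actb library, 52 in the Malat1 library and 102 in the Tfrc library, a fold of 174 (132.7 to 228.8) and 128 (105.5 to 155.9). These folds were 2.12 times (1.61 to 2.79) and 1.62 times (1.33 to 1.97) that of Actb itself. They did not differ from those of Actg-ps1 beyond counting error, with a ratio of Actg-ps1 to Gm15725 of 1.29 (0.748 to 2.24) and 0.919 (0.649 to 1.30).

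Gm15725 lies inside the last exon of Lrrc58 (chr16:37881340-37888944), in its 3′ UTR and on the same strand, so reads of the pseudogene can also be counted for Lrrc58, which encodes a leucine-rich repeat protein. Lrrc58 had 17866 counts in the Actb library, 1118 in the Malat1 library and 1702 in the Tfrc library, and was like Actb in 8.72% of its windows. Its fold was 15.5 over the Malat1 library and 14.7 over the Tfrc library. The fold of Gm15725 was 11.3 times that of Lrrc58 over the Malat1 library (8.51 to 14.9) and 8.73 times over the Tfrc library (7.14 to 10.7).

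Among pseudogenes most like Actg1, Gm12715 and Gm8399 had folds between 1.00 and 1.44 times that of Actg1. Actg-ps1 had higher folds relative to Actg1 in both comparisons. Gm12715 (chr4:103235929-103237833) was like Actg1 in 97.6% of its windows and like Actb in 8.51%, and Gm8399 (chr13:81203683-81204802) in 95.8% and 14.6%. The same 60-base window is shown for both, with capitals where they differ from Actb.
Gm12715: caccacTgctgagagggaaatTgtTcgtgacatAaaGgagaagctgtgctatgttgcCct
Gm8399: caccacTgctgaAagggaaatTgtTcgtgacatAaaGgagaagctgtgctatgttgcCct
Gm12715 had the Actg1 sequence at every base of this window and Gm8399 differed from it at 1 base. Gm12715 had 24870 counts in the Actb library, 1149 in the Malat1 library and 1430 in the Tfrc library, folds of 21.0 (19.8 to 22.2) and 24.3 (23.1 to 25.7). Its fold relative to that of Actg1 was 1.08 over the Malat1 library (1.01 to 1.16) and 1.13 over the Tfrc library (1.06 to 1.21). Gm8399 had 3767, 188 and 171 counts in the Actb, Malat1 and Tfrc libraries, the order used from here on, with folds of 19.4 and 30.8, and a fold relative to that of Actg1 of 1.00 (0.861 to 1.16) and 1.44 (1.23 to 1.68). Of the 4 intervals relative to Actg1, those of Gm12715 in both comparisons and of Gm8399 over the Tfrc library lay above 1. Actg-ps1, which matches Actg1 in 94.4% of its windows and Actb in 10.3%, had the higher ratios to Actg1 given above, 11.7 and 5.49. The part of sequence likeness in these folds was not tested, and the sequences of the oligonucleotides were not used here.

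**Figure D3:**
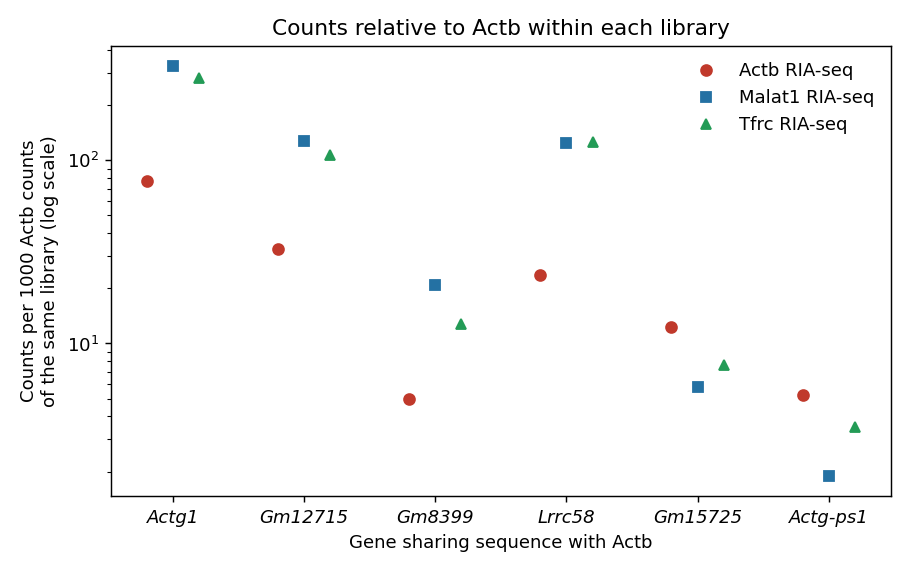
Counts of 6 genes that share sequence with Actb, per 1000 Actb counts of the same library, on a log axis. Actg1, Gm12715, Gm8399 and Lrrc58 were lowest in the Actb library (76.8 against 325.6 and 282.9 for Actg1), whereas Gm15725 and Actg-ps1 were highest there (5.21 against 1.90 and 3.50 for Actg-ps1).

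The remaining genes that share sequence had few counts. Gm5388, a pseudogene with 36.2% of windows like Actg1, had 38, 14 and 7 counts, a fold of 2.63 (1.42 to 4.85) over the Malat1 library and 7.59 (exact interval 3.35 to 20.1) over the Tfrc library. Gm17228, with 25.1% of windows like Actg1, had 68, 40 and 24 counts, a fold of 1.65 (1.11 to 2.43) and 3.96 (2.49 to 6.31), and was the only one of the 7 genes above that stayed under 2-fold in a comparison. Gm12003 had 36 counts in the Actb library and none in the other libraries. It stood 11.6-fold and 16.8-fold higher with the zero counts set to the floor of 3, values without an interval. Gm4750 had 11, 1 and 0 counts. Actbl2, an actin-like gene with no window like either mRNA, was among the 5 genes not listed in any library.

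**Figure D4:**
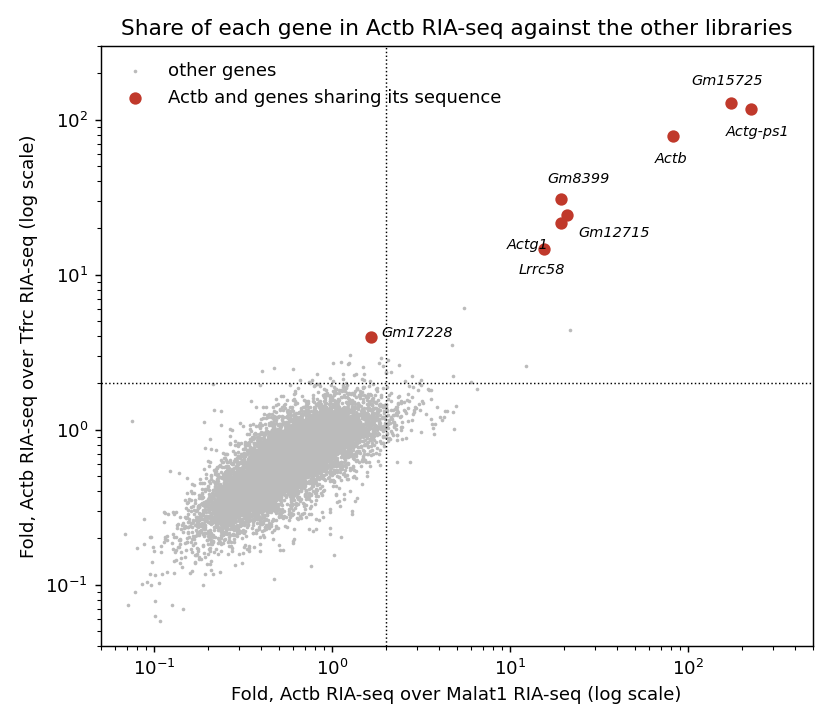
Fold of every gene with at least 10 counts in the libraries compared, in the Actb library over the Malat1 library (x axis) and over the Tfrc library (y axis), both on log axes, with dotted lines at 2-fold. Red points are Actb and genes that share its sequence, of which 7 lie above 10-fold on both axes, and grey points are all other genes, with a median of 0.549 on the x axis and 0.641 on the y axis.

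Genes whose products act on actin were examined as the background of the family. Of 105 genes in 9 lists, 99 were listed and 95 had enough counts in both comparisons. None of the 95 was at least 2-fold higher in the Actb library in either comparison when libraries were scaled to their totals. At least 2-fold lower in the Actb library were 19 of 95 genes (20.0%) against the Malat1 library, where 42.1% of all genes were, and 11 of 95 (11.6%) against the Tfrc library, where 28.6% of all genes were. Their median fold was 0.746 and 0.814, against 0.549 and 0.641 for all genes, and 72 and 73 of the 95 lay above the median gene. Scaled to the median gene, 8 of the 95 stood at least 2-fold higher and 2 at least 2-fold lower over the Malat1 library, and 4 and 2 over the Tfrc library. Of all genes at that scaling, 8.21% stood at least 2-fold higher and 7.38% at least 2-fold lower over the Malat1 library, and 3.85% and 6.9% over the Tfrc library, so these counts lay near or below the shares of all genes. The direction of the associated genes thus depended on the scaling, while that of Actb, Actg1 and Actg-ps1 did not.

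Among genes of monomer binding and filament turnover (13 tested), Cfl1, the cofilin that severs filaments, had the highest fold of the 95 genes over the Malat1 library. It had 5155 counts in the Actb library, 2692 in the Malat1 library and 5100 in the Tfrc library, a fold of 1.85 (1.77 to 1.94) and 1.41. Pfn1, the profilin that delivers monomers to growing ends, had folds of 0.741 and 0.885. Of the 13 genes, 3 were at least 2-fold lower over the Malat1 library and none over the Tfrc library. Of all genes, 42.1% and 28.6% were. The Arp2/3 complex, which nucleates branched filaments, had a median fold of 0.810 and 0.858 over its 9 genes. Its gene with the most counts, Actr3, stood at 0.810 and 0.858 itself, and Arpc5l, at 0.416 and 0.706, was the only subunit at least 2-fold lower in a comparison.

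Formins, which start and elongate unbranched filaments, and other nucleation promoters had the lowest medians of the lists over both libraries, 0.425 over the Malat1 library and 0.530 over the Tfrc library. Of 13 tested, 7 were at least 2-fold lower over the Malat1 library and 6 over the Tfrc library, against 42.1% and 28.6% of all genes. Cobl, the gene of the group with the most counts, had 2617, 5968 and 8051 counts and folds of 0.425 and 0.455. Diap2 had 273, 882 and 1433 counts and folds of 0.300 and 0.267, the latter the lowest of all 95 genes over the Tfrc library. Fhod1 (0.283 and 0.372), Fmn2 (0.313 and 0.327), Daam1 (0.329 and 0.433) and Diap3 (0.335 and 0.403) were at least 2-fold lower in both comparisons. Relative to the median gene, only Diap2 among them was at least 2-fold lower, and only over the Tfrc library.

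In the list of capping, bundling and membrane linker genes, 2 of 19 were at least 2-fold lower in each comparison. Of all genes, 42.1% were over the Malat1 library and 28.6% over the Tfrc library. Pls1, a plastin that bundles filaments, had 42, 153 and 175 counts and was lower in both (0.266 and 0.336), and Actn4, the α-actinin with the most counts, had folds of 0.703 and 0.720. Of the actin-related proteins outside the Arp2/3 complex (8 tested), Actr5, a subunit of the INO80 chromatin remodeller, had 29, 117 and 127 counts and folds of 0.240 and 0.319, and was at least 2-fold lower than the median gene too. Actr1b, a dynactin subunit with the most counts of that list, had folds of 1.16 and 0.833. Tpm3, a tropomyosin that coats filaments, had folds of 0.616 and 0.841, and 1 of 11 genes of its list was at least 2-fold lower over the Malat1 library. In the folding list (14 tested), Cct7, a subunit of the chaperonin that folds actin, had folds of 0.867 and 0.933, and only Pfdn1 (0.476) was at least 2-fold lower, over the Malat1 library.

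SRF drives actin genes in response to the monomer pool through the cofactors Mkl1 and Mkl2. Srf itself had folds of 0.786 and 0.879, Mkl2 of 0.519 and 0.747, and Mkl1 of 0.400 and 0.486, the only one of the 3 at least 2-fold lower in both comparisons. Of 5 genes for proteins that bind the localization element (zipcode) of Actb mRNA, 2 were at least 2-fold lower over the Malat1 library and 1 over the Tfrc library. Of all genes, 42.1% and 28.6% were. Igf2bp1, the zipcode binding protein with the most counts, had folds of 0.693 and 0.790, and Igf2bp3 had folds of 0.346 and 0.463. Relative to the median gene, neither Mkl1 nor Igf2bp3 was at least 2-fold lower.

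**Figure D5:**
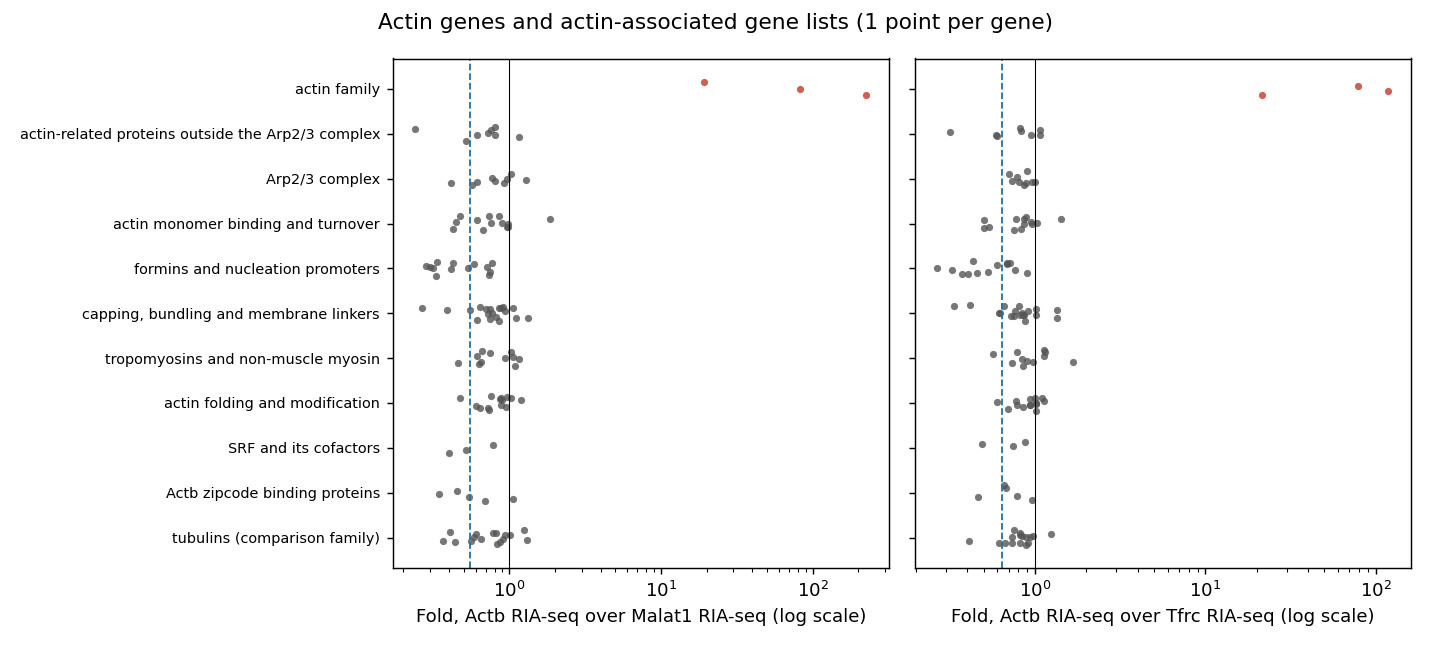
Fold in the Actb library over the Malat1 library (left) and over the Tfrc library (right) of each gene with at least 10 counts in both libraries, by list, on log axes, with a solid line at 1 and a dashed line at the median of all genes. The 3 actin genes tested (red) stood between 19.4 and 226 over the Malat1 library, and no other listed gene exceeded 1.85 on the left or 1.68 on the right, with libraries scaled to their totals.

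The tubulins, another cytoskeletal family with near-identical members, served as a comparison family that no oligonucleotide targeted. Of 18 listed, 16 were tested. None was at least 2-fold higher in the Actb library, where 0.954% and 0.388% of all genes were. At least 2-fold lower were 3 over the Malat1 library and 1 over the Tfrc library, against 42.1% and 28.6% of all genes. The median fold of the 16 was 0.801 and 0.814, above that of all genes in both comparisons. Tuba1b, the α-tubulin with the most counts, had 21053, 33943 and 36152 counts and folds of 0.601 and 0.814, and Tube1 was lower in both comparisons (0.363 and 0.409).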

How the data were processed

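The authors deposited, for each of 3 RIA-seq libraries of mouse E14 ES cells, raw read counts per gene, whole numbers without normalization, listed under an Ensembl identifier or under the name Genome. The submitters' processing notes name Bowtie 0.12.7, mm9 and NCBIM37. The counting rule, read length, strand and handling of multiple matches are not given in the sources used here. Groups came from the labels, with 1 library per condition. Depth was 10405209, 10078439 and 14553941 counts, and intervals cover counting error only.

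Counts of both kinds were summed per gene and divided by the library total. Folds used a pseudocount of 0 and an interval at the 95% level on the log scale, or an exact one (Clopper-Pearson) for counts under 10, which was added after the data were seen. A two-sided chi-square test, or Fisher's exact test for an expected count under 5, was adjusted over all genes (Benjamini-Hochberg). It compares libraries only. Counts of genes past 2-fold covered genes that reached 10 counts in both libraries. The members and gene lists were chosen with earlier results of these data known. Genes named were the family, genes sharing sequence with Actb that had at least 10 counts in any library, and in each list the gene with the most counts and genes past 2-fold over both libraries. Pfn1, Srf, Arpc5l, Pfdn1 and Actbl2 were added after their values were seen. Gene models were GENCODE (Ensembl release 65, NCBIM37), in which 98.6% of 24080 identifiers were found. Sequences came from that genome, compared with BLAST+ 2.17.0 and MAFFT 7.526. The computation was tested on simulated counts. Scripts ran in Python 3.11.15 with pandas 2.3.3, scipy 1.17.1, matplotlib 3.10.9 and numpy 2.4.6. One shared stretch of sequence is not reported here.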

Additional observations from a re-analysis of the deposited data

How the results depend on the processing

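All 38 alternatives computed for the folds of Actb, Actg1 and Actg-ps1 in the Actb library kept their direction and their side of the threshold. Over the Malat1 library and over the Tfrc library, Actb ranged from 38.3 to 149.5 and from 64.3 to 125.9, Actg1 from 16.6 to 35.3 and from 19.3 to 34.2, and Actg-ps1 from 192.9 to 410.7 and from 105.6 to 187.7. With Genome counts only, 1 actin gene (Actb) could be tested, and the number at least 2-fold higher fell from 3 to 1 in both comparisons for that reason. Between the Malat1 library and the Tfrc library, 1 gene (Actg-ps1) in place of 0 differed by at least 2-fold when scaling used the median ratio, the 75th percentile or totals without the 10 most counted genes. In that comparison Actb reversed to 1.01 with Ensembl-ID counts only and 1.68 with Genome counts only, and Actg1 reversed to 0.961, 0.974 and 0.973 under the 3 scalings.

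The actin-associated genes at least 2-fold lower over the Malat1 library, 19 in the report, were 2, 2 and 4 under the 3 scalings in that order, 8 with Ensembl-ID counts only and 2 with Genome counts only, and those at least 2-fold higher, 0 in the report, were 8, 7, 3, 1 and 8. Over the Tfrc library those lower, 11 in the report, were 2, 1, 4, 4 and 1, and those higher were 4, 4, 1, 1 and 7. Of all genes, in the same order of settings, 7.38%, 7.53%, 11.6%, 34.5% and 2.41% were lower and 8.21%, 8.12%, 5.43%, 0.788% and 8.65% higher over the Malat1 library, and 6.9%, 6.41%, 10.2%, 19.7% and 2.13% were lower and 3.85%, 4.34%, 2.28%, 0.388% and 8.74% higher over the Tfrc library. The 3 scalings moved the median gene from 0.549 to 1, 0.995 and 0.879 over the Malat1 library. At a minimum of 90% identity over 100 nt, 2 genes sharing sequence with Actb (Gm15725 and Lrrc58) remained to be tested, and both were at least 2-fold higher. Gm15725 lies inside the last exon of Lrrc58, so these 2 genes are not separate loci. No paired analysis was possible because each condition had 1 library and the labels give no replicate numbers. Counts of the muscle actins were few, and none of these genes reached 10 counts outside the Actb library.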

Other observations

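Of the 21 genes at least 2-fold higher in the Actb library than in both other libraries, 14 shared no sequence with Actb at the limits used. They were chosen by their values and are given as a description. Hist4h4, a histone H4 gene, had 269 counts in the Actb library, 12 in the Malat1 library and 85 in the Tfrc library, a fold of 21.7 and 4.43, which over the Malat1 library lay above Actg1. In the same order, Gm12913 had 635688, 50472 and 344397 counts, a fold of 12.2 and 2.58. The transfer RNA tRNA-Ser-TCG had 131, 23 and 30 counts, a fold of 5.52 and 6.11. Idh3g, a subunit of mitochondrial isocitrate dehydrogenase, had 3287, 675 and 1305 counts, a fold of 4.72 and 3.52.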
